A study of Mus musculus with 6 samples.

Results

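The 10 surface antigen genes studied here mark steps of thymocyte maturation and were followed in double-negative 4 (DN4) thymocytes sorted by GFP. They were Cd2, Cd5, Cd6, Cd24a, Cd27, Cd28, Cd44, Cd52, Cd69 and Ctla4, chosen by gene symbol, and each matched 1 row among the 41386 genes of the expression table. All 10 reached the minimum mean level for testing, as did 11465 genes in all. The GFP-positive group held 3 libraries and the GFP-negative group 3 libraries. All 6 came from adult C57BL/6 mice of the genotype Gata3(g/+), from a Gata3 GFP series, and no other allele or agent is labelled. GATA3 is a zinc finger transcription factor required at several steps of T cell development. The labels do not say whether the GFP allele still makes GATA3 protein, nor whether libraries of 1 group stem from different animals. The p-values therefore rest on library-to-library spread, and that spread may be technical.

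Double-negative thymocytes carry neither of the coreceptors CD4 and CD8 and are staged by other surface antigens. The DN4 stage follows beta selection, the checkpoint for a working beta chain of the T cell receptor (TCR), and precedes the double-positive stage, at which CD4 and CD8 appear together. CD44 is high on the earliest progenitors and is lost before beta selection, CD24 is high on immature thymocytes and lost at maturity, and CD27 and CD28 come up with beta selection. CD5 is set by the strength of TCR signals, CD69 marks thymocytes that have just received a TCR signal, and CD2 and CD6 increase as thymocytes mature.

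Expression was deposited as FPKM, a fragment count scaled to gene length and to library size, and the number of reads per library is unknown, so no counting intervals are given. Gata3 was at 62.7 to 64.2 FPKM in GFP-positive and 20.8 to 24.3 FPKM in GFP-negative libraries. DN4 and pan-thymocyte transcripts (9 genes) summed to 1960 to 2090 FPKM in GFP-positive and 2430 to 2950 FPKM in GFP-negative libraries. This list holds Cd3e, Thy1 and Lck, and also Ptcra and Gata3 itself. Gata3 and Ptcra were the 2 of the 9 that passed as higher in GFP-positive cells by limma, and 4 passed as lower. Markers of the DN1 to DN3 stages (8 genes, among them Kit, Il2ra and Notch3) summed to 17.2 to 22.6 FPKM in GFP-positive and 12.8 to 15.5 FPKM in GFP-negative libraries. Of the 5 tested, Hes1 rose to 3.18 ± 1.01 FPKM in GFP-positive cells, against 0.52 ± 0.20 FPKM in GFP-negative cells (SD, n = 3 each; log2 fold change 1.84, adjusted p = 0.00107 by limma), and the other 4 did not pass. Transcripts of the double-positive stage (8 genes, among them Cd4, Cd8a and Rag1) summed to 345 to 385 FPKM in GFP-positive and 2250 to 3380 FPKM in GFP-negative libraries. Gamma-delta T cell transcripts (6 genes found) summed to 134 to 139 FPKM in GFP-positive and 16.9 to 48.7 FPKM in GFP-negative libraries. Trdc was listed too, but did not match 1 row and is not in that sum. Proliferation genes (8) summed to 901 to 967 FPKM in GFP-positive and 237 to 440 FPKM in GFP-negative libraries. The sums of these 5 lists did not overlap between the groups, although single genes in them did, such as Thy1 and Il2ra. In bulk RNA a change in the share of cells of a type and a change in RNA per cell cannot be told apart. B cell markers (6 genes) summed to 2.24 to 3.60 FPKM in GFP-positive and 7.10 to 9.71 FPKM in GFP-negative libraries. Nearly all of that was Cd79b, which fell (2.66 ± 0.70 FPKM in GFP-positive and 7.83 ± 1.38 FPKM in GFP-negative cells, SD, n = 3 each; log2 fold change -1.41, adjusted p = 0.000791 by limma), while Pax5 was at 0 throughout. Myeloid and dendritic markers (7 genes found) summed to 0.214 to 0.365 FPKM in GFP-positive and 2.17 to 2.88 FPKM in GFP-negative libraries. Most of the GFP-negative sum was Itgam, at 0.03 ± 0.03 FPKM in GFP-positive and 1.88 ± 0.44 FPKM in GFP-negative cells, below the minimum mean level for testing, and Cd14 and Siglech were at 0 throughout. Erythroid and thymic epithelial markers each summed to less than 3.3 FPKM in each library, with overlapping groups. The part of these cell type, stage and proliferation markers in the results below was not tested.

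Along the second principal component (15.5% of the variance) GFP-positive libraries 1 to 3 lay at 38.0, -7.85 and -14.2. GFP-negative libraries 1 to 3 lay at 38.5, -12.4 and -42.0, so libraries 1 and 3 were both far out. GFP-negative library 3 also had the highest sums of its group for gamma-delta (48.7 FPKM, against 16.9 and 17.6) and proliferation genes (440 FPKM, against 237 and 268). A second run deposited by the authors leaves out library 1 of both groups. GFP-positive library 1 also held more transcript of several mature lymphocyte genes. In it, 4 of 5 detected NK and NKT markers and 5 of 7 markers of mature T cells exceeded 1.5 times the mean of GFP-positive libraries 2 and 3. So did 3 of 5 DN1 to DN3, 2 of 4 myeloid and dendritic, 1 of 2 B cell and 2 of 8 double-positive markers. None of the 8 proliferation, 9 DN4 and pan-thymocyte and 6 gamma-delta genes did. The share was 4.61% of all genes tested, which average at least 1 FPKM. The lists were counted from a mean of 0.1 FPKM, and at such low levels this ratio is uncertain. The NK and NKT list (7 genes, with Ncr1 and Eomes below 1 FPKM throughout) summed to 9.42 FPKM in GFP-positive library 1, against 2.30 and 2.74 FPKM across GFP-positive libraries 2 and 3. In GFP-negative libraries 1 to 3 the sums were 4.91, 2.32 and 1.75 FPKM. The mature T cell list (7 genes) summed to 43.0, 28.6 and 27.3 FPKM across GFP-positive libraries 1 to 3, and to 45.6, 50.5 and 39.4 FPKM in GFP-negative libraries 1 to 3. For the members with a raised GFP-positive library 1, results are therefore given with and without it.

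Most of the surface antigen genes were lower in GFP-positive cells. Cd27, Cd28, Cd5, Cd6, Cd52 and Cd69 fell, Cd24a and Ctla4 rose, and Cd2 and Cd44 did not pass the test (limma on log2(FPKM + 0.5) over all genes, Benjamini-Hochberg adjusted p under 0.05). The same test called 54.2% of all genes tested, 24.4% higher and 29.8% lower in GFP-positive cells, which is the background to these 8 of 10. The median log2 fold change of the 10 genes was -1.09, against -0.08 for all genes tested. Fold changes are GFP-positive minus GFP-negative throughout. Without GFP-positive library 1 all 10 genes passed, 8 lower and 2 higher, where 48.6% of all genes passed. Without library 1 of both groups all 10 passed again, beside 44.8% of all genes. Non-overlapping groups were found for 8 of the 10 genes, 6 lower and 2 higher in GFP-positive cells, against 63.8% of all genes tested (35.1% lower and 28.7% higher). In an exact permutation test over 3 against 3 libraries the smallest two-sided p is 0.10, which these 8 genes reached, while Cd2 and Cd44 stood at 0.20.

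**Figure D1:**
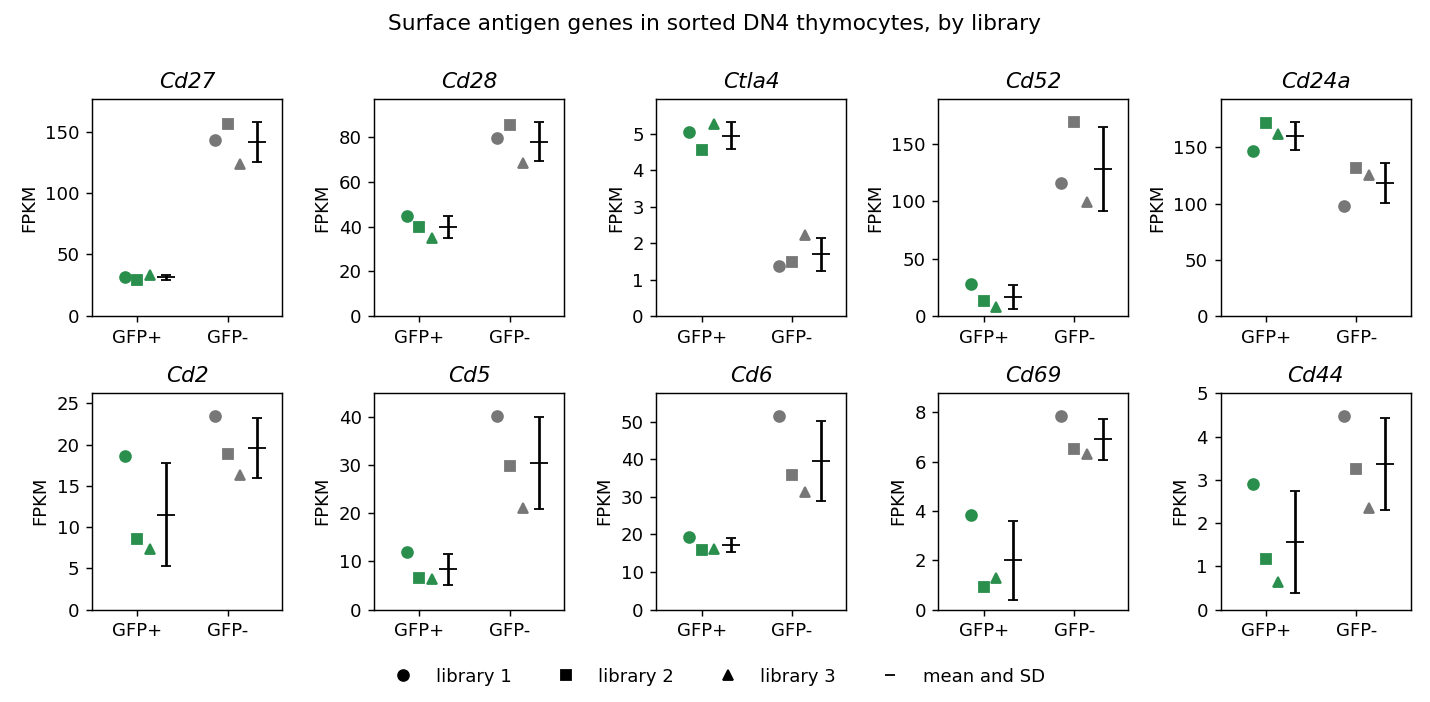
FPKM of the 10 surface antigen genes in each library, with GFP-positive cells on the left and GFP-negative cells on the right of each panel; symbols give the library number and the black bar the mean and SD (n = 3). Groups are apart in all panels except Cd2 and Cd44, where GFP-positive library 1 (18.6 and 2.90 FPKM) lies among the GFP-negative libraries.

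Of the costimulatory receptors, Cd27 and Cd28 fell and the inhibitory Ctla4 rose. Cd27 encodes a receptor of the TNF receptor superfamily that binds CD70 and supports survival and expansion. It stood at 31.7, 29.2 and 33.0 FPKM across GFP-positive libraries 1 to 3, against 143, 157 and 124 FPKM in GFP-negative libraries 1 to 3. The GFP-positive libraries lay close together and all far below the lowest GFP-negative one. Cd27 averaged 31.3 ± 1.94 FPKM in GFP-positive and 141 ± 16.4 FPKM in GFP-negative cells (SD, n = 3 each). It fell by 2.15 ± 0.12 (SE) on the log2 scale (adjusted p = 1.07e-05 by limma), with the smallest adjusted p of the 10 genes. The log2 fold change was -2.16 without GFP-positive library 1, and library 1 stood at 1.02 times the mean of libraries 2 and 3 in either group. Cd27 (ENSMUSG00000030336) is on chromosome 6, minus strand, at positions 125232622 to 125237010 of mm10. Its span overlaps that of Vamp1, a vesicle fusion gene on the opposite strand, which stood at 9.62 ± 1.25 FPKM in GFP-positive and 121 ± 6.89 FPKM in GFP-negative cells (SD, n = 3 each). The sources used here do not state whether strand was used in assigning reads. The annotated exons of the pair share 0 bases.

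Cd28 encodes the main costimulatory receptor of T cells, which binds CD80 and CD86. It stood at 44.6, 39.8 and 34.8 FPKM across GFP-positive libraries 1 to 3, against 79.9, 85.7 and 68.6 FPKM in GFP-negative libraries 1 to 3. The highest GFP-positive library lay well below the lowest GFP-negative one. Cd28 averaged 39.7 ± 4.91 FPKM in GFP-positive and 78.1 ± 8.71 FPKM in GFP-negative cells (SD, n = 3 each). The log2 fold change was -0.97 ± 0.14 (SE; adjusted p = 0.000531 by limma).

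Ctla4 encodes the inhibitory receptor that competes with CD28 for the same ligands, and it was higher in GFP-positive cells. It stood at 5.06, 4.55 and 5.26 FPKM across GFP-positive libraries 1 to 3, against 1.38, 1.49 and 2.21 FPKM in GFP-negative libraries 1 to 3. The GFP-positive libraries were alike, and each was more than 2 times the highest GFP-negative library. Ctla4 averaged 4.96 ± 0.37 FPKM in GFP-positive and 1.69 ± 0.45 FPKM in GFP-negative cells (SD, n = 3 each). Its log2 fold change of 1.33 ± 0.20 (SE; adjusted p = 0.000791 by limma) was larger than that of 96.2% of all genes tested. Its level is low for this tissue, above that of 33.9% of tested genes in GFP-positive cells and 8.30% in GFP-negative cells.

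Cd28 and Ctla4 are neighbours on the plus strand of chromosome 1 of mm10, at positions 60716800 to 60773359 and 60887000 to 60915832. The gap of 114 kb between them holds 0 protein-coding genes of the GENCODE M21 annotation. For every 100 FPKM of Cd28 there were 11.4, 11.4 and 15.1 FPKM of Ctla4 in GFP-positive libraries 1 to 3, against 1.72, 1.74 and 3.23 in GFP-negative libraries 1 to 3. The ratio was thus higher in each GFP-positive library, on average 12.6 ± 2.16 against 2.23 ± 0.87 in GFP-negative cells (SD, n = 3 each; two-sided exact permutation p = 0.10, the smallest possible). The gene next in line, 62.1 kb past Ctla4, is Icos, an inducible costimulator of the same family, named here after its values were seen. Icos stood at 4.82, 0.90 and 0.70 FPKM across GFP-positive libraries 1 to 3, against 5.03, 4.31 and 3.50 FPKM in GFP-negative libraries 1 to 3. GFP-positive library 1 lay among the GFP-negative libraries, and the log2 fold change of -1.19 did not pass (limma, adjusted p = 0.105). It was -1.87 without that library (adjusted p = 0.00133).

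**Figure D2:**
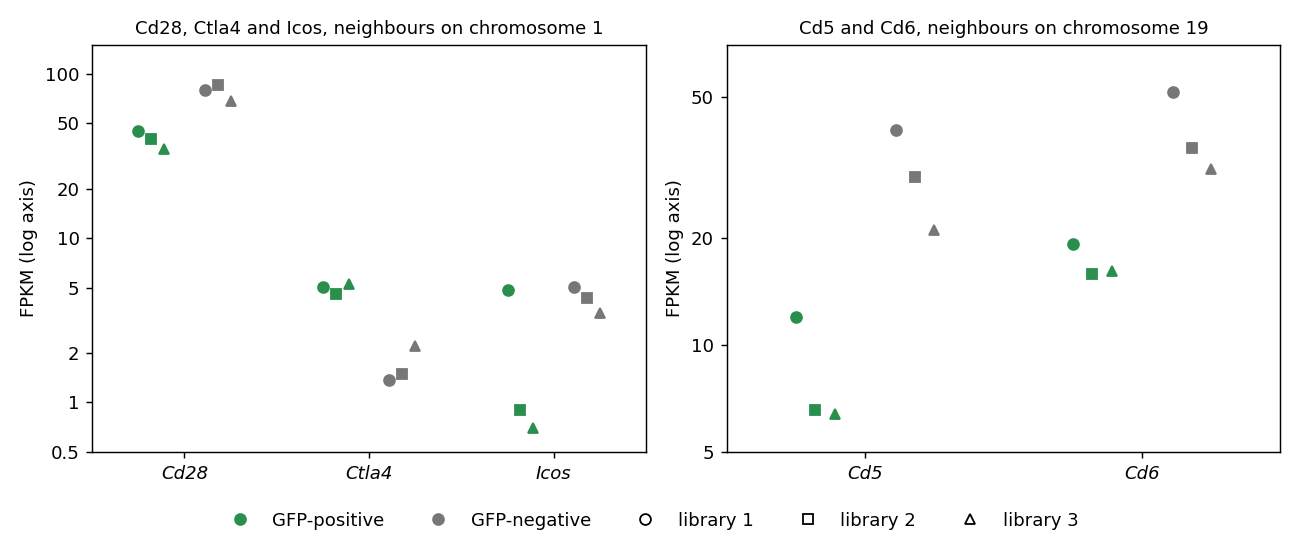
FPKM on a log axis for Cd28, Ctla4 and Icos (left) and for Cd5 and Cd6 (right), by library, GFP-positive to the left of GFP-negative for each gene; symbols give the library number. Cd28 is lower and Ctla4 higher in all GFP-positive libraries, Icos at 4.82 FPKM in GFP-positive library 1 departs from 0.90 and 0.70 FPKM in libraries 2 and 3, and Cd5 and Cd6 are both lower.

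The windows around the transcription start of 4 of the 10 genes are printed to show the start regions beside the changes of these genes, of which Cd27 and Cd5 fell, Ctla4 rose and Cd44 did not pass. They cover 250 bases before to 50 bases after the start, from RefSeq on GRCm38.p6, the assembly known as mm10. Cd27 is at chr6:125236978-125237277 (minus strand), Cd5 at chr19:10738925-10739224 (minus strand), Cd44 at chr2:102901616-102901915 (minus strand) and Ctla4 at chr1:60908775-60909074 (plus strand). The Ctla4 start of RefSeq lies inside the longer gene span of GENCODE given above. Capitals mark the letters GATAA, a longer form of the core GATA bound by GATA factors, on either strand.
Cd27: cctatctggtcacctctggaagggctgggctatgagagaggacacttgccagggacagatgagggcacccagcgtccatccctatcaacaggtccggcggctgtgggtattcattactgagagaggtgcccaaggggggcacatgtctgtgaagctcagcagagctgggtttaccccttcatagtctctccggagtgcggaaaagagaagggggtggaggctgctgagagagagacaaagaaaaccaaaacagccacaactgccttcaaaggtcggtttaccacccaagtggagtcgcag
Cd5: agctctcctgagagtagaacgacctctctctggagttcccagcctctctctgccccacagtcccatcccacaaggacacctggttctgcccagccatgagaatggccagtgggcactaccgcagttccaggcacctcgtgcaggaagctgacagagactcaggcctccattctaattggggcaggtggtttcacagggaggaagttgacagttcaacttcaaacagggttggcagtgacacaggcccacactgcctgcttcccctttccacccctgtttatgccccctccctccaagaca
Cd44: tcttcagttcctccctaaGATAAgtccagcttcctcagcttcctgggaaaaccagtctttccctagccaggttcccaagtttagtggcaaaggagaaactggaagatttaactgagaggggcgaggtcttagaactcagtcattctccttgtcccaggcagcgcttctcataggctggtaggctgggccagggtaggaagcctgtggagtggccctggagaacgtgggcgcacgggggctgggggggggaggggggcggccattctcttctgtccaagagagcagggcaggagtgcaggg
Ctla4: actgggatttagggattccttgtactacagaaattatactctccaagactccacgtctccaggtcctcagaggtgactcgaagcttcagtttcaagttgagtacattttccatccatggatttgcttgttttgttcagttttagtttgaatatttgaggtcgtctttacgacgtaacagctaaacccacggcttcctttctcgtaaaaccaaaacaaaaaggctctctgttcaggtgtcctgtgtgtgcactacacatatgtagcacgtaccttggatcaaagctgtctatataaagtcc
GATAA was found in the Cd44 window, with its first base 232 bases before the start, and not in the other windows. The shorter core GATA was not searched for, and the Cd27 window holds it on the opposite strand, printed as tatc. Of 32851 promoter windows in the table, 25.4% hold GATAA on either strand. The letters CAGCTG, a motif of E proteins (16.3% of windows), and TGTGGT, a motif of RUNX factors (16.8%), matched none of the 4 on either strand. Other forms of these motifs were not searched for. The Ctla4 window was 42.0% G and C, below Cd27 (56.0%), Cd5 (57.3%) and Cd44 (58.0%). A match is a description of letters and no match says nothing about binding elsewhere.

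The adhesion and signal-tuning receptors Cd2, Cd5 and Cd6 were all lower on average in GFP-positive cells, and Cd5 and Cd6 passed the test. Cd5 encodes a scavenger receptor family protein that dampens TCR signals. It stood at 12.0, 6.58 and 6.39 FPKM across GFP-positive libraries 1 to 3, against 40.2, 29.8 and 21.1 FPKM in GFP-negative libraries 1 to 3. Library 1 was the highest of its group on both sides, and the groups did not overlap. Cd5 averaged 8.33 ± 3.20 FPKM in GFP-positive and 30.4 ± 9.55 FPKM in GFP-negative cells (SD, n = 3 each), which gave a log2 fold change of -1.82 ± 0.30 (SE; adjusted p = 0.00160 by limma). Without GFP-positive library 1 it was -2.10 ± 0.25 (adjusted p = 0.000992 by limma).

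Cd6 encodes a receptor of the same family that binds ALCAM. It stood at 19.2, 15.9 and 16.2 FPKM across GFP-positive libraries 1 to 3, against 51.6, 35.9 and 31.4 FPKM in GFP-negative libraries 1 to 3. The groups were apart, and library 1 was again the highest of each. The averages were 17.1 ± 1.87 FPKM in GFP-positive and 39.6 ± 10.6 FPKM in GFP-negative cells (SD, n = 3 each), which gave a log2 fold change of -1.16 ± 0.18 (SE; adjusted p = 0.000920 by limma). Cd5 and Cd6 are neighbours on chromosome 19, minus strand, at positions 10717116 to 10739002 and 10789341 to 10830058 of mm10, with a gap of 50.3 kb and 0 protein-coding genes between. The Cd5 level was 0.625, 0.415 and 0.396 times that of Cd6 in GFP-positive libraries 1 to 3, against 0.779, 0.830 and 0.673 times in GFP-negative libraries 1 to 3. The ratio was lower in each GFP-positive library (two-sided exact permutation p = 0.10, the smallest possible).

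Cd2 encodes an adhesion receptor that binds CD48 in the mouse, and spans positions 101275899 to 101287939 of chromosome 3 (mm10, minus strand). It stood at 18.6, 8.58 and 7.35 FPKM across GFP-positive libraries 1 to 3, against 23.5, 18.9 and 16.4 FPKM in GFP-negative libraries 1 to 3. GFP-positive library 1 lay inside the GFP-negative range, while the other two GFP-positive libraries lay below it. Cd2 averaged 11.5 ± 6.19 FPKM in GFP-positive and 19.6 ± 3.61 FPKM in GFP-negative cells (SD, n = 3 each), and the log2 fold change of -0.84 ± 0.33 (SE) missed the threshold (limma, adjusted p = 0.0667). Without GFP-positive library 1 it was -1.23 ± 0.18 (SE; adjusted p = 0.00200 by limma), and without library 1 of both groups -1.10 ± 0.15 (adjusted p = 0.00336 by limma).

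Cd24a and Cd52 encode small, heavily glycosylated proteins held to the membrane by a glycolipid anchor, and they went in opposite directions. Cd24a, whose product is the heat-stable antigen of immature thymocytes, stood at 147, 171 and 162 FPKM across GFP-positive libraries 1 to 3, against 97.7, 132 and 125 FPKM in GFP-negative libraries 1 to 3. The groups did not overlap, but only a small gap separated them. Cd24a averaged 160 ± 12.5 FPKM in GFP-positive and 118 ± 18.0 FPKM in GFP-negative cells (SD, n = 3 each), which gave a log2 fold change of 0.44 ± 0.14 (SE; adjusted p = 0.0255 by limma). Cd24a spans positions 43578284 to 43584265 of chromosome 10 (mm10, plus strand). Its change was the smallest among the 10 genes, and the call was lost with quantile normalization (log2 fold change 0.27, adjusted p = 0.12). It was also lost when GFP-negative library 1 (0.31, adjusted p = 0.0528), GFP-positive library 2 (0.39, adjusted p = 0.0982) or GFP-positive library 3 (0.43, adjusted p = 0.0769) was left out. The authors' deposited table of 6 libraries gave a q of 0.00130 for Cd24a. In the authors' deposited table of 4 libraries its q was 0.0605.

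Cd52 encodes a very short surface peptide abundant on mature lymphocytes. It stood at 28.2, 12.9 and 7.89 FPKM across GFP-positive libraries 1 to 3, against 116, 169 and 99.2 FPKM in GFP-negative libraries 1 to 3. The groups were far apart, and library 1 was the highest of the GFP-positive group. Cd52 averaged 16.3 ± 10.6 FPKM in GFP-positive and 128 ± 36.6 FPKM in GFP-negative cells (SD, n = 3 each). Its log2 fold change of -3.09 ± 0.50 (SE; adjusted p = 0.00482 by limma) was the largest among the 10 genes, and 117 of the 11465 genes tested had a lower one. It was -3.57 ± 0.28 without GFP-positive library 1 (adjusted p = 0.000239). Cd52 is on chromosome 4, minus strand, at positions 134082448 to 134095082 of mm10, and 172 of its 1187 exonic bases (14.5%) are shared with Crybg2 on the opposite strand. Crybg2, listed in the table under the older symbol Aim1l, was at 1.13 FPKM or below in each library.

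The activation and homing antigens Cd69 and Cd44 had low transcript levels in these cells. Cd69 encodes the early activation antigen, which also holds back the egress receptor S1PR1, and spans positions 129267325 to 129275436 of chromosome 6 (mm10, minus strand). It stood at 3.81, 0.90 and 1.26 FPKM across GFP-positive libraries 1 to 3, against 7.85, 6.51 and 6.32 FPKM in GFP-negative libraries 1 to 3. GFP-positive library 1 was about midway between the other two GFP-positive libraries and the GFP-negative group, and the groups did not overlap. Cd69 averaged 1.99 ± 1.59 FPKM in GFP-positive and 6.89 ± 0.83 FPKM in GFP-negative cells (SD, n = 3 each), which gave a log2 fold change of -1.74 ± 0.38 (SE; adjusted p = 0.00542 by limma). Without GFP-positive library 1 it was -2.23 ± 0.21 (adjusted p = 0.000394).

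Cd44 encodes the hyaluronan receptor by which early double-negative stages are told apart, and spans positions 102811141 to 102901665 of chromosome 2 (mm10, minus strand). It stood at 2.90, 1.17 and 0.63 FPKM across GFP-positive libraries 1 to 3, against 4.48, 3.26 and 2.36 FPKM in GFP-negative libraries 1 to 3. Library 1 was the highest of both groups, and GFP-positive library 1 lay among the GFP-negative libraries. Cd44 averaged 1.57 ± 1.18 FPKM in GFP-positive and 3.37 ± 1.06 FPKM in GFP-negative cells (SD, n = 3 each), and the log2 fold change of -1.02 ± 0.40 (SE) missed the threshold (limma, adjusted p = 0.0571). Without GFP-positive library 1 it was -1.45 ± 0.32 (SE; adjusted p = 0.00800). It also passed without GFP-negative library 3 (-1.22, adjusted p = 0.0479) and without library 1 of both groups (-1.25, adjusted p = 0.0231).

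**Figure D3:**
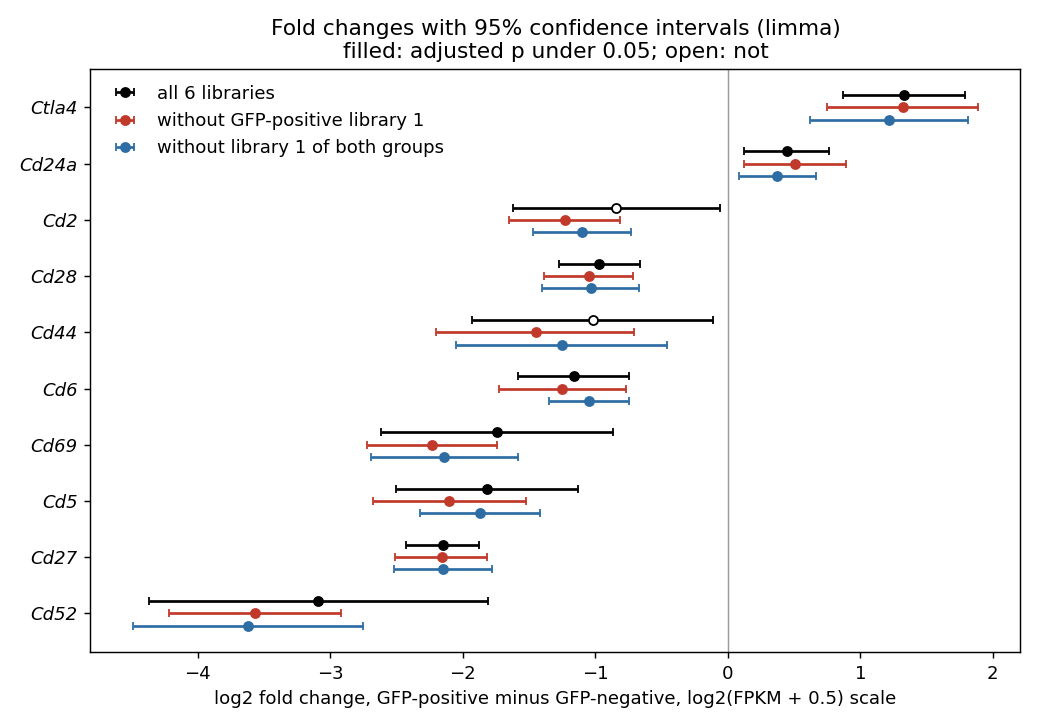
Log2 fold change (GFP-positive minus GFP-negative, log2(FPKM + 0.5) scale) of each gene with its 95% confidence interval, from all 6 libraries, without GFP-positive library 1 and without library 1 of both groups; filled points passed an adjusted p of 0.05. Cd2 and Cd44 are open only with all 6 libraries, and Ctla4 and Cd24a alone lie above 0.

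The departure of GFP-positive library 1 was seen in part of the members. It was the highest GFP-positive library for 7 of the 10 genes, against 18.4% of all genes tested. It exceeded 1.5 times the mean of libraries 2 and 3 for 5 of the 10, against 4.61% of all genes tested. These were Cd69 (3.53 times), Cd44 (3.22 times), Cd52 (2.72 times), Cd2 (2.34 times) and Cd5 (1.85 times). Cd27, Ctla4 and Cd24a had ratios of 1.02, 1.03 and 0.88. In the GFP-negative group the ratio of library 1 to libraries 2 and 3 ran from 0.74 for Ctla4 to 1.59 for Cd44. For these 5 genes, in the same order, library 1 of the groups gave log2 differences of -0.95, -0.55, -2.02, -0.33 and -1.70, and libraries 2 and 3 gave -2.14, -1.25, -3.62, -1.10 and -1.87. Since they were picked for a high GFP-positive library 1, the smaller difference in library 1 follows from the choice. Cd6 (-1.40 in library 1 and -1.05 in libraries 2 and 3), Ctla4 (1.57 and 1.22) and Cd24a (0.58 and 0.37) had the larger difference in library 1. Cd27 was nearly equal (-2.16 and -2.15), and Cd28 had the smaller difference in library 1 (-0.835 and -1.03). All 10 genes kept their sign in both subsets. Most of the mature T, NK and NKT markers given above, and some markers of other lists, were higher in the same GFP-positive library. Their part in these differences was not tested.

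**Figure D4:**
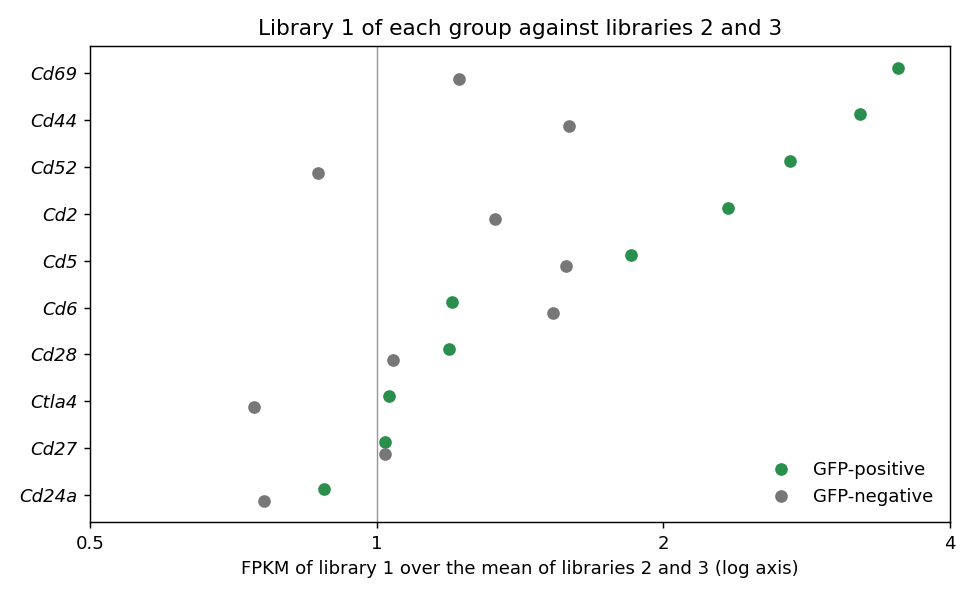
FPKM of library 1 over the mean of libraries 2 and 3 of its own group (log axis) for each gene, in GFP-positive and GFP-negative cells. GFP-positive library 1 reaches 3.53 times for Cd69 and 3.22 times for Cd44, and the GFP-negative ratios lie between 0.74 and 1.59.

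The order of levels among the 10 genes, compared per kilobase as FPKM, differed between the groups. In GFP-positive cells Cd24a led (160 FPKM), followed by Cd28 (39.7), Cd27 (31.3), Cd6 (17.1), Cd52 (16.3), Cd2 (11.5), Cd5 (8.33), Ctla4 (4.96), Cd69 (1.99) and Cd44 (1.57). Neighbours from Cd6 to Cd5 in that order, and Cd69 and Cd44, had overlapping ranges over the libraries. In GFP-negative cells the order was Cd27 (141 FPKM), Cd52 (128), Cd24a (118), Cd28 (78.1), Cd6 (39.6), Cd5 (30.4), Cd2 (19.6), Cd69 (6.89), Cd44 (3.37) and Ctla4 (1.69). There the ranges of Cd27, Cd52 and Cd24a overlapped from each to the next, as did those of Cd6, Cd5 and Cd2.

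Together the 10 genes summed to 313, 291 and 275 FPKM across GFP-positive libraries 1 to 3, against 566, 639 and 497 FPKM in GFP-negative libraries 1 to 3. Cd24a made up 54.9% ± 6.96 of the sum in GFP-positive cells and 21.0% ± 4.0 in GFP-negative cells (SD, n = 3 each). Cd52 made up 5.44% ± 3.20 in GFP-positive and 22.3% ± 3.61 in GFP-negative cells, and Cd27 10.7% ± 1.11 in GFP-positive and 24.9% ± 0.41 in GFP-negative cells. Cd28 held 13.5% ± 0.81 of the sum in GFP-positive and 13.8% ± 0.35 in GFP-negative cells, a difference smaller than the spread between libraries (two-sided exact permutation p = 0.80). The level of Cd24a was 4.62, 5.87 and 4.91 times that of Cd27 in GFP-positive libraries 1 to 3, against 0.68, 0.84 and 1.01 times in GFP-negative libraries 1 to 3.

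**Figure D5:**
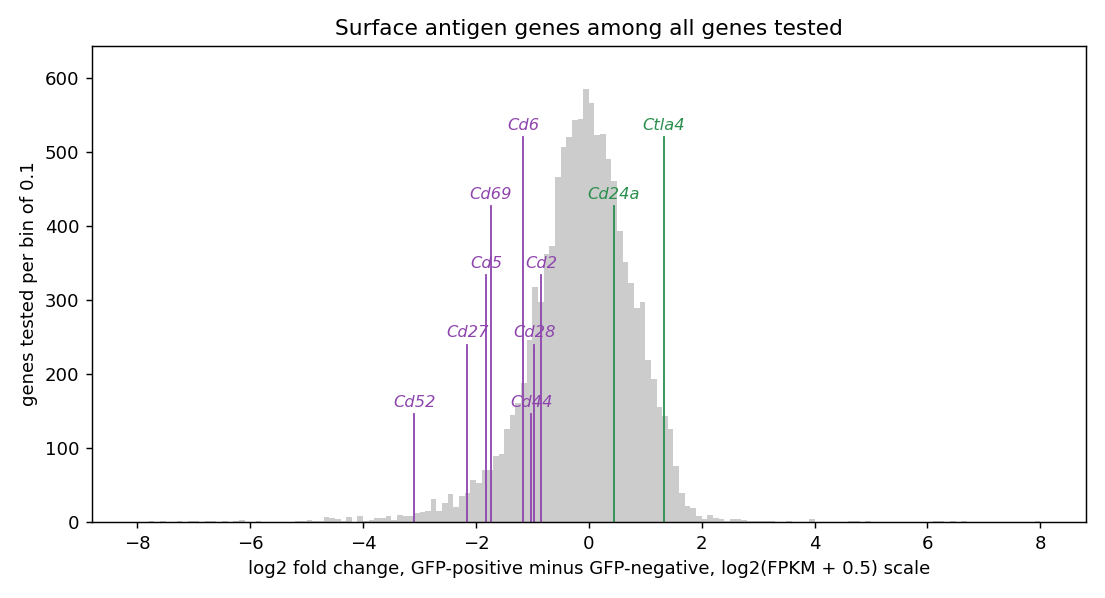
Number of genes per bin of 0.1 of log2 fold change (GFP-positive minus GFP-negative, log2(FPKM + 0.5) scale) over the 11465 genes tested, with the 10 surface antigen genes as lines; line heights have no meaning. Cd52 (-3.09) and Cd27 (-2.15) lie in the lower tail and Ctla4 (1.33) in the upper one, while Cd24a (0.44) lies within the bulk.

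Among all genes with a mean of at least 5 FPKM, those with a pattern over the 6 libraries most like Cd52 were Trac, the TCR alpha constant region, Gimap8 and Btg1. The root mean square difference of their centred log2 levels from Cd52 was 0.23, 0.26 and 0.29. Trac stood at 55.4, 27.1 and 22.5 FPKM across GFP-positive libraries 1 to 3, against 306, 313 and 191 FPKM in GFP-negative libraries 1 to 3. It thus shared with Cd52 the higher value of GFP-positive library 1. The genes most like Ctla4 were Crip1, the linker histone gene Hist1h1b and the ribosomal protein gene Rpl35, at differences of 0.04, 0.07 and 0.07. Ctla4 itself averaged 3.33 FPKM, below the minimum set for the matched genes. Its log2 fold change was 1.33 with 0.5 FPKM added before the log and 1.52 with 0.1 added, so these differences depend on that value. Crip1 stood at 252 ± 12.0 FPKM in GFP-positive and 96.7 ± 23.2 FPKM in GFP-negative cells (SD, n = 3 each). Among the 10 genes themselves the closest pair was Cd2 and Cd44, at 0.17, followed by Cd6 and Cd28, at 0.22. The closeness of Cd2 and Cd44 depends on the 0.5 FPKM added before the log. With 0.5 added their log2 fold changes were -0.84 and -1.02, and with 0.1 added -0.87 and -1.25.

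Most genes for ligands of these receptors were at low levels in the sorted cells. Of 9 genes for ligands and cis partners, 7 stayed below 1 FPKM in each library, among them Cd80 and Cd86, which bind CD28 and CTLA4, and Alcam. Cd70, the ligand of CD27, was listed at 0 in each library, where 0 can be a failed estimate. Of the 2 tested, Lgals1, a galectin, rose to 95.3 ± 5.70 FPKM in GFP-positive cells, against 55.0 ± 7.67 FPKM in GFP-negative cells (SD, n = 3 each; log2 fold change 0.80, limma, adjusted p = 0.000995). Cd48, the partner of CD2, stood at 12.8 ± 0.71 FPKM in GFP-positive and 10.9 ± 2.76 FPKM in GFP-negative cells and did not pass (log2 fold change 0.24, limma, adjusted p = 0.264).

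Of 27 genes for cytoplasmic partners of these receptors, not all of them carriers of signals, 26 were tested. Of these, 14 fell and 3 rose, with a median log2 fold change of -0.51. Among all genes tested 29.8% fell and 24.4% rose. Lcp2, the adaptor SLP-76, stood at 25.7 ± 2.15 FPKM in GFP-positive and 84.5 ± 17.6 FPKM in GFP-negative cells (SD, n = 3 each; log2 fold change -1.68, limma, adjusted p = 7.01e-05). Pstpip1, which binds the tail of CD2, had a log2 fold change of -1.65. Siva1, which binds the tail of CD27, rose to 45.9 ± 11.3 FPKM in GFP-positive cells, against 18.5 ± 7.37 FPKM in GFP-negative cells (log2 fold change 1.34, limma, adjusted p = 0.00649). Cd27 and Siva1 thus moved in opposite directions. Rdx, a linker of CD44 to actin, rose with a log2 fold change of 0.57, and Cd2bp2, which binds the CD2 tail, with one of 0.39. The related linkers Msn and Ezr, named after their values were seen, did not rise. Msn fell with a log2 fold change of -0.54 (limma, adjusted p = 0.00343), and Ezr did not pass (-0.20, limma, adjusted p = 0.15).

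Of 22 relatives of the members by family, 13 were tested, of which 7 fell and 2 rose, with a median log2 fold change of -0.68. The shares of all genes tested, 29.8% lower and 24.4% higher, are again the background. Slamf1, of the CD2 family, stood at 2.35 ± 0.53 FPKM in GFP-positive and 20.6 ± 3.66 FPKM in GFP-negative cells (SD, n = 3 each; log2 fold change -2.89, limma, adjusted p = 1.50e-05). Cd84, of the same family, had a log2 fold change of -1.56, and Clec2d, a C-type lectin-like gene as is Cd69, one of -1.38. Cd163l1, a scavenger receptor gene related to Cd5 and Cd6 and a marker of gamma-delta T cells, rose with a log2 fold change of 2.19. Tnfrsf1b, of the receptor superfamily of CD27, rose with one of 0.52.

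Of 30 other thymocyte surface antigens, 26 were tested, of which 11 fell and 3 rose, with a median log2 fold change of -0.29. The coreceptor genes had the largest falls, with log2 fold changes of -4.83 for Cd4, -3.04 for Cd8a and -2.26 for Cd8b1. Il7r, a cytokine receptor chain, stood at 6.93 ± 3.15 FPKM in GFP-positive and 1.56 ± 0.70 FPKM in GFP-negative cells (SD, n = 3 each; log2 fold change 1.84, limma, adjusted p = 0.00270). GFP-positive library 1 was the highest for Il7r, at 10.5 FPKM, against 5.57 and 4.70 FPKM across GFP-positive libraries 2 and 3. Ly6a rose with a log2 fold change of 1.57 and Ly6e with one of 0.68, to 1127 ± 42.9 FPKM in GFP-positive cells, against 707 ± 79.0 FPKM in GFP-negative cells. Thy1, the pan-thymocyte antigen, named after its values were seen, stood at 460 ± 46.1 FPKM in GFP-positive and 458 ± 53.5 FPKM in GFP-negative cells, with a 95% confidence interval of the log2 fold change from -0.30 to 0.32. These counts stand beside the 24.4% of all tested genes that were higher and the 29.8% that were lower in GFP-positive cells.

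In the authors' deposited table of 6 libraries all 10 surface antigen genes had a q under 0.05, 8 of them lower in GFP-positive cells, and 49.3% of the genes it tested. In the authors' deposited table of 4 libraries 9 of the 10 were called, all except Cd24a, beside 34.9% of the genes tested. The authors' deposited table of 6 libraries gave Cd2 and Cd44 a q of 0.00019 each, where limma on the same values did not call them.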

How the data were processed

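Per the labels' protocols, ribosomal RNA was removed from the RNA of the sorted cells. TopHat2, Cuffdiff and the build mm10 come, without versions, from the submitters' processing notes. The sources used here give no settings, strand handling or annotation. The authors deposited FPKM values per library in a table of 6 libraries and in another of 4, without library 1 of either group. The authors' deposited tables also hold a q-value for each gene.

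The groups were compared with limma 3.58.1 in R 4.3.3, with trend and robust settings. It was run on log2(FPKM + 0.5) computed from the deposited FPKM, over genes averaging at least 1 FPKM. This scale understates the change of low genes. Left out were 24 genes with the status HIDATA. P-values were adjusted over all genes tested by Benjamini and Hochberg's method. Exact permutation tests used SciPy 1.17.1. The procedure was tested on simulated data. Positions are from GENCODE M21 (mm10), and promoter windows, found for 4 of the 10 genes, from RefSeq. Alternatives were other pseudocounts (0.1 and 1), filters (none, or at least 5 FPKM), scalings (quantile, upper quartile), limma with neither setting, a replicate block, each library left out, the 4-library table and the same 4 libraries of the 6-library table. The replicate numbers of the titles were not taken as pairs. The members and gene lists were chosen with earlier results of these data known. Named were all 10 members and, from each list, the genes that passed with the largest log2 fold changes, at most 3 in a direction. A gene that this rule also names is not reported here. For Cd52 and Ctla4, the members with the largest fall and rise, the 3 genes of most similar pattern were also named.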

Additional observations from a re-analysis of the deposited data

How the results depend on the processing

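All 157 values of the 10 genes under 16 alternatives kept their direction, and Cd27, Cd28, Cd5, Cd6, Cd52, Cd69 and Ctla4 passed wherever they were tested. Cd2 passed in the 4-library table (log2 fold change -1.16) and with the same libraries of the 6-library table (-1.10), and ran from -1.23 to -0.59 with each library left out. Cd44 passed in the same fits (-1.26 and -1.25), with a range from -1.45 to -0.66. Cd24a lost its call with quantile normalization (0.27), with a range from 0.31 to 0.53. The cause was not tested. Between 7 and 10 of the 10 genes passed with each library left out, and 5052 to 6130 of all genes, against 6216 with all 6. The count of ligand and partner genes ran from 1 to 2. Quantile normalization moved the median of all genes up by 0.135 and the share of calls that were higher in GFP-positive cells to 55.1%, against 45.0%. Not every pair of same-numbered libraries deviated together: the correlations of deviations from the group means were 0.094 for number 1, the highest of the 9 pairings, -0.021 for number 2 and 0.061 for number 3. Library 1 of both groups lay together on the second principal component, while GFP-positive library 2 correlated best with GFP-negative library 3. With the replicate number as a block 6390 genes and all 10 members passed, Cd2 at -0.84 and Cd44 at -1.02, and Icos passed as well (-1.19, adjusted p = 0.0305 by limma). Depth is unknown, which limits Cd44, Cd69 and Ctla4 most, at a few FPKM.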

Other observations

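Several transcripts outside the lists of surface antigens set library 1 of both groups apart. Il2rb, a receptor chain of interleukins 2 and 15 found on NK and memory T cells, stood at 6.32, 0.72 and 0.59 FPKM across GFP-positive libraries 1 to 3, and at 3.15, 0.16 and 0.86 FPKM in GFP-negative libraries 1 to 3. Nkg7, a cytotoxic granule gene, stood at 5.28, 1.28 and 1.67 FPKM across GFP-positive libraries 1 to 3, and at 2.95, 0.67 and 0.20 FPKM in GFP-negative libraries 1 to 3. Zbtb16, the transcription factor of NKT cells, stood at 1.119, 0.20 and 0.18 FPKM across GFP-positive libraries 1 to 3, and at 0.25, 0.02 and 0.07 FPKM in GFP-negative libraries 1 to 3. All 3 were highest in library 1 of each group, as were Cd2, Cd5, Cd6, Cd44 and Cd69 among the surface antigens, while Foxp3 stayed below 0.39 FPKM in each library. What these patterns share was not tested.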
